A study of Mus musculus with 4 samples.

Results

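Respiratory chain genes were read from a table of 55335 gene rows measured in sorted stomach epithelial cells. The members are the 96 rows whose symbol names a subunit of complex I (Nduf followed by a, b, s, c or v and a number, or mt-Nd), complex III (Uqcr or mt-Cytb), complex IV (Cox4 to Cox8 with a subunit letter, or mt-Co) or complex V (Atp5 or mt-Atp). They comprise 75 rows of nuclear genes, 13 mitochondrially encoded genes and 8 rows of nuclear pseudogenes. The choice rests on symbols alone, so Cox4i1, Cyc1, Cycs and Ndufab1, and all of complex II, fall outside it and are given as a related list. Ndufa4 is counted with complex I by its symbol, although its protein is known as a subunit of complex IV.

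The respiratory chain sits in the inner mitochondrial membrane. Complex I takes electrons from NADH, complex III passes them from ubiquinol to cytochrome c, and complex IV hands them to oxygen. The proton gradient that they build drives complex V, the ATP synthase. Most subunits are encoded in the nucleus and imported, and a few hydrophobic ones in complexes I, III, IV and V are encoded by mitochondrial DNA, so each of these complexes is assembled from the products of both genomes. In the stomach corpus, acid-secreting parietal cells are known for their very dense mitochondria.

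All 4 libraries came from C57BL/6 mice aged 6 to 8 weeks that carry Iqgap3-2A-tdTomato, in which the Iqgap3 locus also produces a red fluorescent protein. Live EpCAM-positive cells of the corpus were sorted by flow cytometry into a fraction bright for the reporter (IQ3pos) and a fraction dim or dark for it (IQ3neg). IQ3pos_1909A and IQ3neg_1909B were each pooled from 3 mice, and IQ3pos_1910A and IQ3neg_1910B were each pooled from 4 mice. The sort selects on reporter brightness and not on a cell type, each library is a pool, and no untagged mice are among the samples. The labels do not say whether fractions with the same number came from the same mice. A p-value here rests on the spread between 2 pools per group, part of which may be technical, and in part on the spread of other genes.

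Libraries held 90714929 to 418401262 assigned reads. Iqgap3 itself stood at 0.22 and 9.32 CPM (counts per 1000000 reads) in IQ3pos_1909A and IQ3pos_1910A, against 0.0435 and 0.452 CPM in IQ3neg_1909B and IQ3neg_1910B. The groups overlap for this gene, with IQ3pos_1909A below IQ3neg_1910B, so its transcript does not bear out the sort labels in every library. Values for single genes below follow this library order. Epcam was present in every library, at 205 to 517 CPM. Summed over 13 parietal markers, the level was 8638 and 8315 CPM in IQ3pos against 928 and 1668 CPM in IQ3neg, and 12 of 13 were higher in both IQ3pos libraries. In IQ3neg_1909B the markers Slc26a7 and Aqp4 were at 0. The 10 proliferation markers summed to 1530 and 3271 CPM in IQ3pos against 107 and 243 CPM in IQ3neg, with all 10 higher in both IQ3pos libraries and Plk1 at 0 in IQ3neg_1909B. The 10 chief cell markers found summed to 62000 and 22115 CPM in IQ3pos against 518134 and 504046 CPM in IQ3neg, and 8 of the 10 were lower in both IQ3pos libraries. The 8 pit cell markers summed to 15614 and 18276 CPM in IQ3pos against 9030 and 11272 CPM in IQ3neg, with 6 higher and 1 lower in both IQ3pos libraries. The 4 neck cell markers summed to 4617 and 5914 CPM against 678 and 1152 CPM, with 2 of the 3 tested higher. The 10 enteroendocrine markers summed to 445 and 289 CPM against 17697 and 11718 CPM, with 9 lower. For the 8 tuft cell markers the sums were 616 and 152 CPM against 417 and 1255 CPM. For 9 blood and immune markers they were 282 and 54.1 CPM against 393 and 78.4 CPM. Those of 10 stromal, endothelial and muscle markers were 1.46 and 1.49 CPM against 28.6 and 2.22 CPM. IQ3neg_1909B was thus the highest library for blood and immune and for stromal, endothelial and muscle markers.

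The nuclear subunit genes were higher in IQ3pos as a block, and the mitochondrially encoded ones were not separated to the same degree. A gene was tested when its mean over the 4 libraries reached 1 CPM, which 13019 genes did. These include 69 of the 75 nuclear rows, 12 of the 13 mitochondrially encoded genes and 3 of the 8 pseudogene rows. Of the 69 nuclear members tested, 68 had both IQ3pos libraries above both IQ3neg libraries, where 40.9% of all tested genes did. The exception was Ndufa1, and no nuclear member lay lower in both, where 14.2% of all tested genes did. Among the 12 mitochondrially encoded genes, 4 were higher in both IQ3pos libraries (mt-Nd2, mt-Nd3, mt-Nd6 and mt-Cytb) and the other 8 overlapped. Of these 4, mt-Nd3 reached at most 1.68 CPM in any library and has a near-identical nuclear copy, so its place is uncertain. The members are abundant, and among the 6866 genes whose mean reached 10 CPM the share higher in both IQ3pos libraries was 58.0%.

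CPM are shares of a library, and the median difference over all tested genes was itself 0.68 on the log2(CPM + 1) scale (IQ3pos minus IQ3neg). The median of the nuclear members was 1.58, which is 0.90 above all genes. The median of the mitochondrially encoded members was 0.78, or 0.11 above all genes. After TMM scaling (trimmed mean of M-values), which sets the bulk of genes near equal and left an all-gene median of 0.04, the medians were 0.82 and 0.06. On that scale 60 of 69 nuclear members were higher in both IQ3pos libraries, 8 overlapped and Ndufa1 was lower in both. The matching shares over all tested genes were 24.7% higher and 23.0% lower, and 34.4% higher among genes of at least 10 CPM. No mitochondrially encoded member was separated in either direction after TMM scaling.

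No member passed an adjusted p of 0.05 in limma on log2(CPM + 1), in which 0.0% of all 13019 genes passed. The smallest adjusted p of a nuclear member in limma was 0.0618, for Cox5a and Atp5g1, and that of a mitochondrially encoded member was 0.253, for mt-Cytb. At an unadjusted p under 0.05 in limma stood 65 of 69 nuclear members, all higher, and 0 of 12 mitochondrially encoded ones, beside 2373 higher and 648 lower of all 13019 genes. Limma on TMM-scaled CPM called no member, with 0.23% of all genes called, and put 39 nuclear members higher and 1 lower at an unadjusted p under 0.05, beside 994 higher and 1083 lower of all 13019 genes. On the recovered whole reads, edgeR's quasi-likelihood test called no member with 0.291% of 16831 genes called, and DESeq2 called no member with 12.7% called. At an unadjusted p under 0.05 edgeR put 32 of 69 nuclear members and DESeq2 1 of 69, beside 2257 and 2227 of the 12560 genes tested both there and in limma, and neither put a mitochondrially encoded one. With only genes of at least 10 CPM in the limma fit, 56 of 69 nuclear members passed, all higher, where 14.5% of 6866 genes passed as higher, and 0 of 11 mitochondrially encoded members passed. The number called also moved with other choices, to 32 without the mitochondrially encoded genes and 14 with a pseudocount of 4, and stayed at 0 with no filter. In bulk samples of this kind, more cells of a type and more RNA per cell cannot be told apart.

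**Figure D1:**
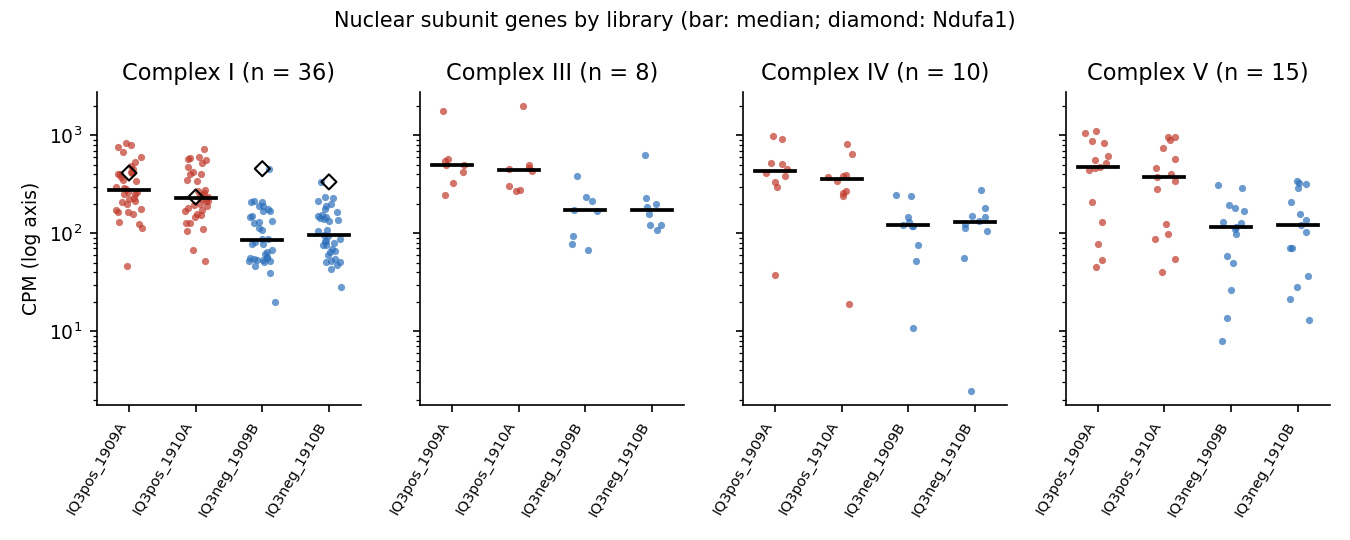
CPM on a log axis of the tested nuclear members of complexes I, III, IV and V in each of the 4 libraries, red for IQ3pos and blue for IQ3neg, with each bar the median over members and the diamond marking Ndufa1. The medians lie higher in both IQ3pos libraries in all 4 complexes, while Ndufa1 stood at 413 and 235 CPM in IQ3pos and 457 and 335 CPM in IQ3neg.

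Promoter windows of 4 nuclear members are shown because these members mark the ends of the range: Uqcrc1 and Ndufa9 had the largest difference of complexes III and I, Cox5a the largest of all, and Ndufa1 the smallest. The windows are RefSeq sequence of build GRCm38.p6, 250 bases before to 50 after the annotated start, and of the 69 tested members 58 had one. Each was searched on both strands for GCGCATGC (NRF1), AAGATGGC (YY1), CCGGAAG (ETS) and AAGGTCA (ERR), and capitals mark a match. The adjoining NRF1 matches on the 2 strands in Uqcrc1 overlap each other. Uqcrc1 lies at chr9:108936398-108936697 on the plus strand, Ndufa9 at chr6:126849095-126849394 on the minus strand, Cox5a at chr9:57520982-57521281 on the plus strand, and Ndufa1 at chrX:37191189-37191488 on the minus strand.
Uqcrc1: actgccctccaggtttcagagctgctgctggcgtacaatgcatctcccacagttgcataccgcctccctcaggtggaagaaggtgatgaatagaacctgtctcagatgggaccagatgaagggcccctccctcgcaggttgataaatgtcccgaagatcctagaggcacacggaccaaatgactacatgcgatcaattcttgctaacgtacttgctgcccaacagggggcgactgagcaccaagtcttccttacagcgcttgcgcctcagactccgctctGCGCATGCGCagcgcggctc
Ndufa9: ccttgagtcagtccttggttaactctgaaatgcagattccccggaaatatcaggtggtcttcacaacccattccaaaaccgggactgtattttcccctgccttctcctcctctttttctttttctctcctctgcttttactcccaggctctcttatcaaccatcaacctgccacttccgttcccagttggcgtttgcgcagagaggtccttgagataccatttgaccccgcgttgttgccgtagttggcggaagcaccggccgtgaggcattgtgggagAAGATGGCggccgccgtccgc
Cox5a: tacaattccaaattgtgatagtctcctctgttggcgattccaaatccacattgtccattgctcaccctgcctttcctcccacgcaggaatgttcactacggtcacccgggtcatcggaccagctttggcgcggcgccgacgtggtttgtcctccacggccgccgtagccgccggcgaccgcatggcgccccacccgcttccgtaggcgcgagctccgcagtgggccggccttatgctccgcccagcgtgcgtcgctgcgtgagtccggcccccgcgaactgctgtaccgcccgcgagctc
Ndufa1: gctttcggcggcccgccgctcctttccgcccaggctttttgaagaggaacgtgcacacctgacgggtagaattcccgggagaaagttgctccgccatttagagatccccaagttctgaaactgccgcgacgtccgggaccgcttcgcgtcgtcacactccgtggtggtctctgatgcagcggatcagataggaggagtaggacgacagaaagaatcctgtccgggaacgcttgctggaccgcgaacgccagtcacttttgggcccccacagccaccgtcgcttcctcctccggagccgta

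Counts are of genes, some of which have more than 1 window, and a gene counts if any of its windows matched. The NRF1 letters were found in 9 of the 58 members (15.5%), against 3.05% of 27025 genes with a window. Among the 9554 tested genes with a window the share was 6.08%. The YY1 letters were also in 9 (15.5%, against 3.19% and 5.33%), the ETS letters in 14 (24.1%, against 9.93% and 20.5%) and the ERR letters in 7 (12.1%, against 5.38% and 3.88%). At least 1 of the 4 motifs was in 31 of the 58 members (53.4%), against 19.7% of all and 31.6% of tested genes. Neither Cox5a nor Ndufa1 had a match. The Ndufa1 window holds no base of the GENCODE gene (chrX:37187588-37191163), so its lack of a match is not directly comparable. A match is a run of letters and not a measured binding site.

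Complex I is the largest group, with 36 nuclear members, all tested, and 35 of them were higher in both IQ3pos libraries. Their median difference was 1.51 (0.84 above all genes). The 7 core subunits, which carry the flavin and the iron-sulphur clusters that move electrons, had a median of 1.56 and ranged from 1.46 to 1.83. The 29 accessory subunits, which surround the core, had a median of 1.49 and a wider range, from -0.33 to 1.95. Ndufa8, an accessory subunit of the intermembrane space side, stood at 753 and 720 CPM in IQ3pos and 211 and 236 CPM in IQ3neg. Its 2 groups were far apart relative to the spread within them (log2 difference 1.72, SE 0.25, limma adjusted p = 0.0653). Ndufb10, another accessory subunit, stood at 798 and 524 CPM against 216 and 215 CPM, a log2 difference of 1.58. Ndufa4 stood at 845 and 557 CPM against 207 and 200 CPM, a log2 difference of 1.75. The upper end of complex I was held by Ndufa9, a quinone-site accessory subunit, at 426 and 426 CPM against 87.6 and 136 CPM (log2 difference 1.95), and Ndufa10 at 266 and 246 CPM against 56.4 and 87.3 CPM (1.85).

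Ndufa1 stood apart from every other nuclear member. This gene encodes a small membrane-arm subunit required for complex I assembly, and lies at chrX:37187588-37191163 (GRCm38, minus strand). It stood at 413 and 235 CPM in IQ3pos and at 457 and 335 CPM in IQ3neg, so the groups overlapped. The log2 difference was -0.33 (SE 0.37), and limma did not call it (adjusted p = 0.615). The next lowest nuclear member, Ndufs4, was at 0.68. Within a library, Ndufa1 was 1.07 and 0.848 times the median nuclear member in IQ3pos and 4.00 and 2.73 times that median in IQ3neg, a ratio that does not depend on library scaling. The ratios do not overlap, although with 2 libraries per group an exact two-sided permutation test cannot go below 0.333. The TMM-scaled difference was -1.09 (limma adjusted p = 0.290), lower in both IQ3pos libraries. The difference was -0.14 in the 3-mouse and -0.51 in the 4-mouse libraries. No exon of another GENCODE gene overlaps Ndufa1, and no transcript of another gene matched it at 95% identity. The other X-linked members went with the block: Ndufb11 stood at 378 and 269 CPM against 128 and 140 CPM, and Cox7b at 455 and 387 CPM against 119 and 125 CPM.

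Ndufs4, an accessory subunit of the electron-input arm, was the second lowest of complex I. It stood at 112 and 68.1 CPM in IQ3pos and 56.1 and 52.5 CPM in IQ3neg. Its log2 difference of 0.68 (SE 0.41) equals the median of all genes, and it was -0.08 after TMM scaling.

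Complex III has 8 nuclear members, all tested and all higher in both IQ3pos libraries, with a median difference of 1.55. Uqcrc1, a core protein of the matrix side, was the most read nuclear member of the chain at 1778 and 1986 CPM in IQ3pos against 384 and 626 CPM in IQ3neg. Its log2 difference was 1.94 (SE 0.31, limma adjusted p = 0.0659), the largest of this complex. Uqcrh, the hinge protein next to cytochrome c1, followed at 427 and 307 CPM against 93.3 and 123 CPM (1.75). The smallest differences were those of the small subunits Uqcrq, at 553 and 457 CPM against 236 and 229 CPM (1.11), and Uqcr11, at 502 and 464 CPM against 212 and 197 CPM (1.24). Uqcrq overlapped between groups after TMM scaling.

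Complex IV has 15 nuclear members, of which 10 were tested and 10 were higher in both IQ3pos libraries, with a median difference of 1.76 (1.08 above all genes). Cox5a, which builds the matrix side of the enzyme, stood at 333 and 242 CPM in IQ3pos against 51.7 and 56.2 CPM in IQ3neg. Its log2 difference was 2.37 (SE 0.33, limma adjusted p = 0.0618). An antisense gene, Gm26631, overlaps 269 of its exonic bases, and strand use is not given in the sources used here. For 22 of the 69 tested nuclear members the gene with the largest exonic overlap is likewise on the opposite strand. Cox7c, a small membrane subunit, stood at 983 and 653 CPM against 247 and 183 CPM (1.91), and Cox5b, which binds zinc, at 522 and 379 CPM against 118 and 134 CPM (1.82). The smallest differences of the complex, those of Cox7a2 (1.44) and Cox6c (1.47), still lay above the all-gene median.

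Several complex IV subunits are written by more than 1 gene, and the ubiquitous form carried nearly all reads of each. Cox6a1, the widely expressed form, stood at 511 and 341 CPM against 122 and 152 CPM, and the striated-muscle form Cox6a2 at 0.022, 0, 0 and 0.325 CPM. Cox6b1 stood at 922 and 821 CPM against 242 and 279 CPM, and the testis form Cox6b2 reached at most 0.00869 CPM. Cox8a stood at 300 and 257 CPM against 76.5 and 113 CPM, while Cox8b and Cox8c reached at most 0.0174 and 0.011 CPM. Cox7b2, the testis form of Cox7b, reached 0.456 CPM in IQ3neg_1910B and at most 0.022 CPM elsewhere. A library with no read of a gene allows up to 3 reads, which is 0.0331 and 0.0107 CPM in IQ3pos and 0.0261 and 0.00717 CPM in IQ3neg. Cox7a was the one subunit with a measured second form. Cox7a2, the widely expressed form, stood at 414 and 390 CPM against 147 and 147 CPM. Cox7a1, best known from heart and skeletal muscle, stood at 37.3 and 18.9 CPM against 10.8 and 2.48 CPM. Its log2 difference of 2.11 was the least certain of the complex (SE 0.89, limma adjusted p = 0.233), and the groups overlapped after TMM scaling. Of the muscle genes listed, Des, Myh11 and Actg2 were at or under 0.1 CPM in every library, and Acta2 stood at 0.022 and 1.14 CPM against 0.0174 and 0.693 CPM.

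Complex V has 16 nuclear rows, of which 15 were tested and 15 were higher in both IQ3pos libraries, with a median of 1.73 (1.05 above all genes). The row not tested is a second Atp5o row, at 0 in every library. The other Atp5o row, for a stalk subunit, stood at 471 and 402 CPM against 127 and 122 CPM. The 5 genes of the catalytic head had a median of 1.61, and its catalytic subunit Atp5b stood at 830 and 954 CPM against 195 and 346 CPM (1.77). The 4 genes of the peripheral stalk, which holds the head still, had a median of 1.76. Among them Atp5j stood at 1106 and 897 CPM against 308 and 291 CPM (1.73, SE 0.26, limma adjusted p = 0.0659). The Gabpa gene on the opposite strand overlaps 397 exonic bases of Atp5j.

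The c ring, the part of complex V that turns in the membrane, is written by Atp5g1, Atp5g2 and Atp5g3, which encode the same mature protein. Atp5g1 stood at 1049 and 968 CPM against 290 and 318 CPM (log2 difference 1.73, SE 0.24, limma adjusted p = 0.0618). Atp5g3 stood at 468 and 281 CPM against 97.8 and 71.0 CPM (2.11, SE 0.38, limma adjusted p = 0.0666). Atp5g2 stood at 45.5 and 39.8 CPM against 7.86 and 12.9 CPM (1.97, SE 0.57, limma adjusted p = 0.128). All 3 were higher in both IQ3pos libraries on the CPM and the TMM scale, and their differences lie within the errors of each other. The low end of the complex was Atp5e, a small head subunit, at 211 and 124 CPM against 59.1 and 71.2 CPM (1.31), and Atp5l, a membrane subunit, at 77.5 and 54.4 CPM against 26.5 and 21.3 CPM (1.41). Atp5l shares near-identical sequence with many processed copies, so its reads may have been split. The same limit applies to other nuclear members over part of their length. Among them, Atp5g1 matched Gm10039 at 99.8% identity, Cox7c matched Gm10012 at 99.6% and Cox5b matched Gm11273 at 99.2%. These copies read at most 23.3 CPM.

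The nuclear differences lay within a narrow band. The SD of the difference among the 69 members was 0.37 on the log2 scale, and over all tested genes it was 1.51. Among the 12 mitochondrially encoded members tested it was 0.26, so a narrow band is not particular to the nuclear set. The all-gene value takes in genes of far lower level, and no gene set of like abundance was compared. By pool size, the nuclear median was 1.81 between the 3-mouse libraries and 1.37 between the 4-mouse libraries, with 68 of 69 positive in each. All 12 mitochondrially encoded members tested were also positive in each pair on the CPM scale. Of all 13019 genes, 8624 were positive between the 3-mouse and 8642 between the 4-mouse libraries on that scale. After TMM scaling 67 of 69 nuclear members were positive in each pair. Of the 12 mitochondrially encoded members, 2 were then positive between the 3-mouse and 12 between the 4-mouse libraries. The matching counts over all 13019 genes were 6740 and 6795. Across the 69 members the differences of the 2 pool sizes had a Pearson correlation of 0.643 (Spearman 0.469), and 0.485 without Ndufa1, beside 0.389 over all 13019 genes. These are correlations across genes that share their libraries, so they are descriptions only, and the all-gene value again takes in genes of lower level.

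**Figure D2:**
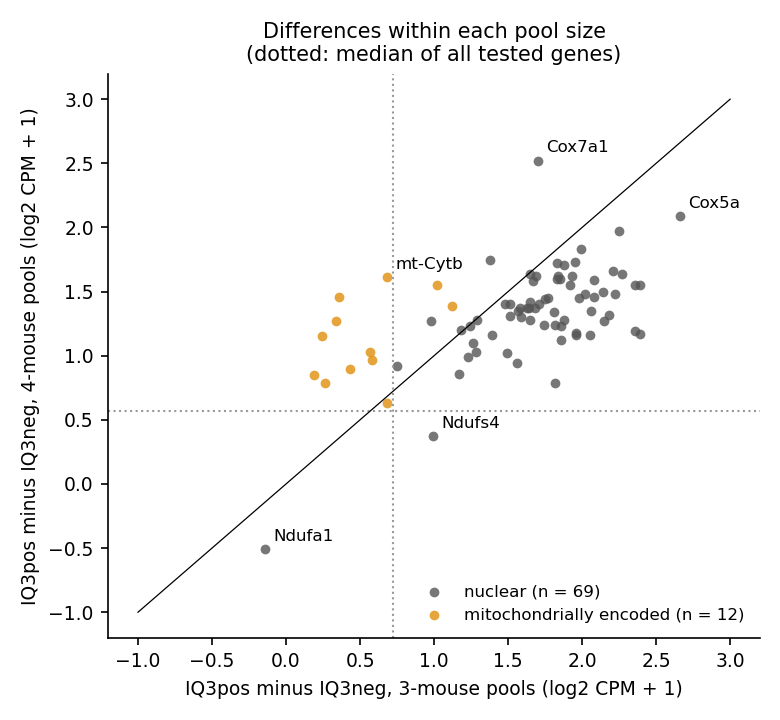
Log2 (CPM + 1) difference, IQ3pos minus IQ3neg, between the 3-mouse libraries (horizontal) and the 4-mouse libraries (vertical) for 69 nuclear (grey) and 12 mitochondrially encoded (orange) members, with dotted lines at the median of all tested genes and a line of equality. The nuclear members crowd above both medians except Ndufa1, below both, and Ndufs4, below the median of the 4-mouse libraries, while the mitochondrially encoded ones have a median of 0.50 between the 3-mouse and 1.09 between the 4-mouse libraries.

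Summed over the nuclear members, the level was 29350 and 25135 CPM in IQ3pos against 8662 and 9531 CPM in IQ3neg. The 2 IQ3neg libraries were close to each other, and the ratio of the group means was 2.99, or 1.76 after TMM scaling. The mitochondrially encoded sum was 114965 and 80859 CPM in IQ3pos against 76650 and 28416 CPM in IQ3neg. Here IQ3neg_1909B lay near IQ3pos_1910A, and the 2 IQ3neg libraries differed more from each other than the IQ3pos ones did. The mitochondrially encoded sum was thus 3.92 and 3.22 times the nuclear sum in IQ3pos, and 8.85 and 2.98 times in IQ3neg. As a share of all chain reads it was 79.7% and 76.3% in IQ3pos (78.0% ± 2.39, SD, n = 2) and 89.8% and 74.9% in IQ3neg (82.4% ± 10.6, SD, n = 2). The IQ3neg range includes both IQ3pos values, so the balance between the genomes was not separated between groups, and IQ3neg_1909B alone stood apart. Without IQ3neg_1909B, all 12 mitochondrially encoded members were higher in IQ3pos on the CPM and the TMM scale, with a median 1.12 above all genes, against 1.01 for the nuclear members. Without IQ3pos_1910A all 12 were higher on the CPM scale and 2 on the TMM scale, with a median 0.54 above all genes. Without IQ3neg_1910B the same median was -0.81 relative to all genes, and without IQ3pos_1909A it was -0.46. Without mt-Cytb the ratios were 0.885 and 0.629 in IQ3pos and 2.45 and 0.749 in IQ3neg, with IQ3neg_1909B again the highest. Between the 3-mouse libraries the mitochondrially encoded sum was 1.5 times as high in IQ3pos while the nuclear sum was 3.39 times as high. Between the 4-mouse libraries the same ratios were 2.85 and 2.64. After TMM scaling the mitochondrially encoded sum in IQ3pos was 0.818 times that in IQ3neg between the 3-mouse libraries and 1.8 times between the 4-mouse libraries. The nuclear sum was then 1.85 and 1.67 times as high in IQ3pos.

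**Figure D3:**
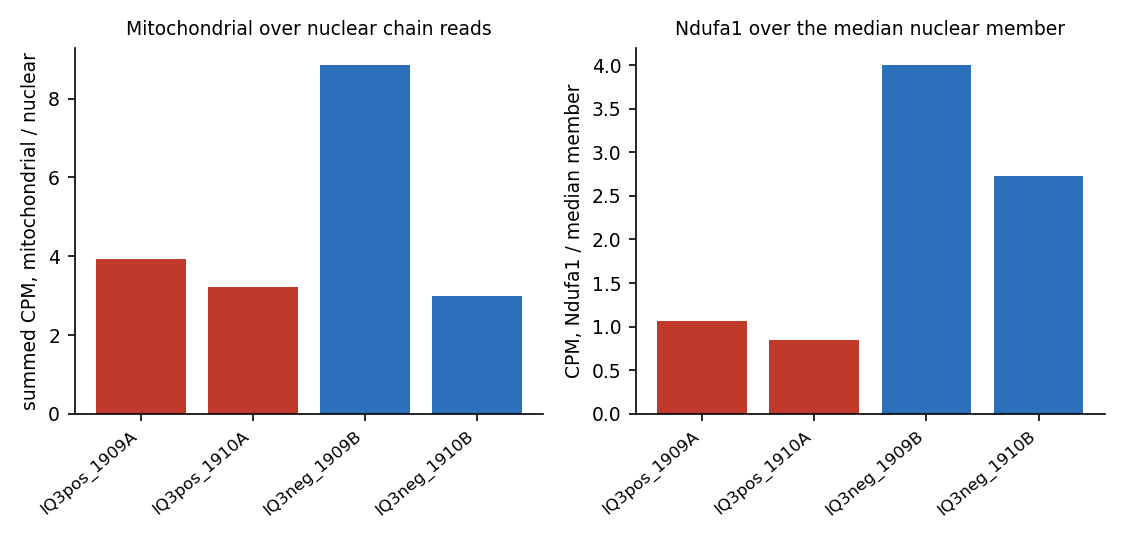
Left, summed CPM of the mitochondrially encoded members divided by that of the nuclear members in each library, and right, CPM of Ndufa1 divided by the median nuclear member, with red bars for IQ3pos and blue for IQ3neg. The left ratio is 8.85 in IQ3neg_1909B and between 2.98 and 3.92 in the other libraries, and the right ratio is 4.00 and 2.73 in IQ3neg against 1.07 and 0.848 in IQ3pos.

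By complex, the mitochondrially encoded medians were 0.72 for complex I (6 tested genes), 1.15 for complex III (mt-Cytb alone), 0.69 for complex IV (3 genes) and 1.27 for complex V (2 genes). Each lay under the nuclear median of its complex over the 4 libraries. This order did not hold in every pair: between the 4-mouse libraries mt-Cytb was at 1.61 and the nuclear median of complex III at 1.33. mt-Cytb, the haem-bearing core of complex III, stood at 88980 and 65048 CPM in IQ3pos against 55465 and 21280 CPM in IQ3neg. Both IQ3pos libraries were the higher ones, yet the log2 difference of 1.15 had an SE of 0.52 (limma adjusted p = 0.253). It held 77.4% and 80.4% of mitochondrially encoded reads in IQ3pos and 72.4% and 74.9% in IQ3neg. Per kb of transcript its mean was 67320 CPM in IQ3pos and 33542 CPM in IQ3neg, and mt-Co1, next in IQ3pos, was at 6561 and 4596 CPM per kb.

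Of the complex I genes of the mitochondrial membrane arm, mt-Nd1 stood at 5801 and 4364 CPM against 4574 and 1811 CPM, with the groups overlapping. mt-Nd2, of the proton-pumping arm, stood at 1375 and 1084 CPM against 1073 and 393 CPM, separated by the narrow gap between 1084 and 1073 CPM. mt-Nd6, the only protein gene on the light strand, stood at 314 and 228 CPM against 210 and 116 CPM. mt-Nd4 and mt-Nd5, also pumping subunits, overlapped at 2951 and 1567 against 2594 and 870 CPM, and at 2146 and 984 against 1595 and 528 CPM. Their log2 differences were 0.52 and 0.66, and both were below 0 after TMM scaling (-0.25 and -0.10). mt-Nd3 stood at 1.37 and 1.68 CPM against 0.974 and 0.545 CPM, and mt-Nd4l, below the level for testing, at 1.70 and 0.641 against 0.722 and 0.318 CPM. These 2 short genes are the lowest of the mitochondrially encoded members.

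In complex IV, the catalytic subunit mt-Co1 stood at 12813 and 7461 CPM against 10832 and 3371 CPM. mt-Co2, which receives electrons from cytochrome c, stood at 50.2 and 10.6 CPM against 33.5 and 4.71 CPM. mt-Co3 stood at 106 and 15.3 CPM against 65.8 and 9.53 CPM. In complex V, mt-Atp6, the proton channel subunit, stood at 384 and 83.8 CPM against 188 and 27.9 CPM, and mt-Atp8 at 40.2 and 10.4 CPM against 18.0 and 3.35 CPM. For all of these complex IV and V genes, mt-Co1 included, both 3-mouse libraries lay above both 4-mouse libraries. The same held for mt-Nd1, mt-Nd4, mt-Nd4l and mt-Nd5, but not for mt-Nd2, mt-Nd3, mt-Nd6 and mt-Cytb. The SE of the log2 difference was 0.60 for mt-Co1 and 1.06 to 1.22 for mt-Co2, mt-Co3, mt-Atp6 and mt-Atp8.

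**Figure D4:**
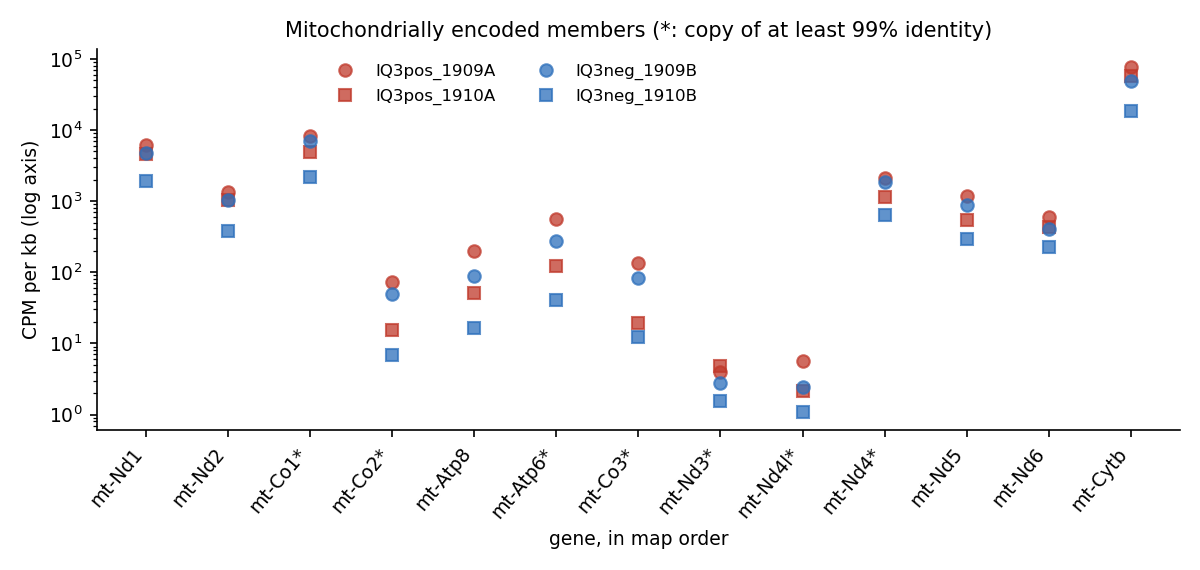
CPM per kb on a log axis of the 13 mitochondrially encoded members in map order, with circles for the 3-mouse and squares for the 4-mouse libraries, red for IQ3pos and blue for IQ3neg, and an asterisk for members with a nuclear copy of at least 99% identity over at least 25% of their length. mt-Cytb is highest in every library, and mt-Co2, mt-Co3, mt-Atp8, mt-Nd3 and mt-Nd4l lie far below mt-Nd1.

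The genes read least per kb were mostly those with a full-length nuclear copy. Mitochondrial DNA pieces inserted in the nuclear genome are known as nuclear mitochondrial segments, and GENCODE annotates 1 on chromosome 1 as a row of pseudogenes. Matching transcripts against each other found copies of at least 99% identity for 7 members, all on the minus strand within chr1:24611535-24616197 (GRCm38). Of these, 5 members had at least 99% of their length covered: mt-Co2 (Gm28661), mt-Atp6 (Gm10925), mt-Co3 (Gm28437), mt-Nd3 (Gm28438) and mt-Nd4l (Gm10222). These 5 averaged 3.94 to 344 CPM per kb in IQ3pos. mt-Co1 (31.3% covered, Gm29216) and mt-Nd4 (63.6% covered, Gm28439) were at 6561 and 1639 CPM per kb. The 6 members without such a copy were at 523 to 67320 CPM per kb, except mt-Atp8 at 124, for which no annotated copy was found and whose map neighbours on both sides are mt-Co2 and mt-Atp6.

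A stretch of mt-Co2 shows its identity with a near copy and its differences from a more distant one. It was picked because, among stretches of 75 bases, none differed more from the distant copy (7 differences). It is bases 448 to 522 of the gene, chrM:7460-7534 on the plus strand of GRCm38, beside the aligned bases of Gm28661 (chr1:24614885-24615565, minus strand) and of a more distant copy, Gm13341 (chr2:22587291-22587962, minus strand), with capitals marking bases that differ from mt-Co2.
mt-Co2: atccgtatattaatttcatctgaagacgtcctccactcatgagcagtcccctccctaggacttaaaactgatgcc
Gm28661: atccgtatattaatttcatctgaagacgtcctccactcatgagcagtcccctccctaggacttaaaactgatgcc
Gm13341: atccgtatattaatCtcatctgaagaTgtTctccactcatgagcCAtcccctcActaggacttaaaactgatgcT

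Gm28661 matched mt-Co2 over 681 bases with 0 differences, and Gm13341 over 684 bases at 95.9% identity. Gm28438 matched mt-Nd3 over 345 bases with 1 difference, T3C, counted from the first base of mt-Nd3. Reads of 75 bases from the stretch above could not be assigned to mt-Co2 or Gm28661 by sequence. The table nevertheless gives each its own value, and Gm28661 stood at 45.4 and 10.7 CPM in IQ3pos and 29.2 and 4.60 CPM in IQ3neg. It was thus 0.904, 1.01, 0.870 and 0.978 times mt-Co2, about equal in every library. Gm10925 was 1.25, 1.09, 1.23 and 1.10 times mt-Atp6, and Gm28437 was 1.31, 1.35, 1.34 and 1.32 times mt-Co3. For mt-Nd3 the copy was at 14.7, 0.725, 8.37 and 1.93 times the member, so that ratio differed by pool. The partial copies were small beside their members: Gm29216 was at most 0.0167 times mt-Co1 and Gm28439 at most 0.0141 times mt-Nd4. How the authors' counting treated reads with several matches is not given in the sources used here, so the levels of the members with such copies are uncertain. With only the 6 members without such a copy, the mitochondrially encoded share of chain reads was 77.1% and 74.0% in IQ3pos and 87.9% and 71.7% in IQ3neg, in the same order as before.

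The 8 pseudogene rows of the chain were low. Of the 3 that reached 1 CPM, Uqcrh-ps2 stood at 3.19 and 0.842 CPM against 0.643 and 0.370 CPM, Atp5l-ps2 at 2.74 and 0.971 against 0.556 and 0.251 CPM, and Atp5l2-ps at 3.78 and 1.71 against 0.765 and 0.746 CPM. All 3 were higher in both IQ3pos libraries, where 40.9% of all tested genes were, with limma adjusted p of 0.509 to 0.566. After TMM scaling only Atp5l2-ps stayed higher in both, and Uqcrh-ps2 and Atp5l-ps2 overlapped. Atp5l2-ps matched Atp5l at 99.4% identity over its whole length, so its reads away from the few differing bases cannot be told from those of Atp5l.

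The rest of the chain, given by a list of 17 genes outside the symbol rule, lay near the nuclear members in its median. Of 12 tested, 11 were higher in both IQ3pos libraries and none was lower, where 40.9% and 14.2% of all tested genes were. After TMM scaling 9 were higher and none lower, where 24.7% and 23.0% of all tested genes were. None passed in limma, and the median was 1.08 above all genes. Sdhb, the iron-sulphur subunit of complex II, stood at 1242 and 1203 CPM against 322 and 360 CPM (log2 difference 1.84, SE 0.24, limma adjusted p = 0.0605). Cox4i1, the regulatory subunit of complex IV, stood at 970 and 699 CPM against 200 and 255 CPM (1.86).

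The genes that assemble the complexes lay closer to all other genes. For complex I assembly, 12 of 16 tested genes were higher in both IQ3pos libraries and the median was 0.36 above all genes, but after TMM scaling 2 were higher and 2 lower. The 2 most abundant, Timmdc1 and Tmem126b, had log2 differences of 0.57 and 0.93. For complex III assembly, 2 of 6 were higher and the median was -0.01 relative to all genes, with Uqcc2 at 0.73 and Uqcc1 at 0.89. For complex IV assembly, 12 of 17 were higher and the median was 0.35 above all genes, with Coa3 at 1.26 and Cox14 at 0.96. For complex V assembly all 3 were higher and the median was 0.66 above all genes. Tmem70, which supports c ring assembly, stood at 245 and 129 CPM against 7.32 and 51.2 CPM. After TMM scaling 0 were higher and 1 lower for complex III assembly, 6 higher and 0 lower for complex IV, and 1 higher and 0 lower for complex V. Of all tested genes, 40.9% were higher in both IQ3pos libraries on the CPM scale and 24.7% after TMM scaling. No assembly gene passed in limma, TMM-scaled limma, edgeR or DESeq2.

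Genes that copy, transcribe and process mitochondrial DNA were mostly higher in IQ3pos, with some lower. Of 21 tested, 14 were higher and 2 lower in both IQ3pos libraries, where 40.9% and 14.2% of all tested genes were. After TMM scaling 9 were higher and 3 lower, where 24.7% and 23.0% of all tested genes were. The median was 0.75 above all genes. Hsd17b10, a subunit of mitochondrial RNase P, stood at 489 and 352 CPM against 107 and 119 CPM (1.87), and Ssbp1, the single-stranded DNA binding protein, at 101 and 121 CPM against 62.9 and 67.3 CPM (0.76). Twnk, the helicase of mitochondrial DNA replication, went the other way, at 0.0661 and 0.874 CPM in IQ3pos against 6.89 and 4.77 CPM in IQ3neg. DESeq2 called it lower (adjusted p = 0.0277) and limma did not (adjusted p = 0.229). Of the markers given above, the summed parietal, pit, neck and proliferation levels were higher in both IQ3pos libraries, as the nuclear chain genes were. The chief and enteroendocrine sums and the stromal, endothelial and muscle sum were lower in both. The tuft cell sum and the blood and immune sum overlapped between groups. The part of these marker groups in the differences was not tested.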

How the data were processed

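Bulk RNA-seq libraries were made by SMART-Seq2, per the labels' protocols, which copies whole transcripts and, having no molecular identifiers, counts PCR copies. The authors deposited CPM (counts per 1000000 reads) by gene symbol. The submitters' processing notes name GRCm38/mm10, edgeR, Subread 2.0.0, featureCounts and STAR 2.7.1a, with no role or order. How reads with several matches were counted, like strand use and annotation, is not given in the sources used here.

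In the deposited table, CPM of a library sum to 1000000, and 100.0% of values came out within 0.05 of a whole read. The recovered totals were 90714929 (IQ3pos_1909A), 279125309 (IQ3pos_1910A), 115016307 (IQ3neg_1909B) and 418401262 (IQ3neg_1910B) reads. Limits from reads cover counting error only.

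Members, gene lists and tests were chosen with earlier results of these data known. The plan named limma-trend on log2(CPM + 1) for CPM and edgeR for counts, and as the values were CPM, limma-trend was used (R 4.3.3, limma 3.58.1). It compared IQ3pos with IQ3neg, two-sided, over the 13019 genes whose mean reached 1 CPM, with Benjamini-Hochberg adjustment over all of them at 0.05. Differences on this scale understate those of low genes. In this fit the variance of each gene was moderated by genes of similar level, with 2 residual and 3.61 prior degrees of freedom. Its SEs and p-values thus rest only in part on the gene's own pools. Count tests on the recovered reads used edgeR 4.0.16 (quasi-likelihood, TMM) and DESeq2 1.42.0. Only the limma-trend fit on log2(CPM + 1) was tested on simulated data, which had the same dispersion for every gene. Alternatives were other scalings, filters and pseudocounts, each library left out, and a replicate block, with TMM-scaled versions of the last 2, and the mitochondrially encoded share with the nuclear copies' CPM included, added after seeing the data.

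Coordinates and gene overlaps are from GENCODE vM21 on GRCm38. The matching of member transcripts to those of other genes used megablast (BLAST+ 2.17.0) at 95% identity over at least 75 bases. Lengths for CPM per kb are those of the principal transcript. Of all rows, 96.9% matched a GENCODE symbol, and the 2 Atp5o rows could not be tied to 1 gene ID each, so they have no position. The named members are all mitochondrially encoded ones. In each nuclear complex they are the 3 of highest mean CPM and the 2 of largest and 2 of smallest difference. Subunits written by several genes, Ndufa4, called members and nuclear copies of mitochondrial genes were added, and from each related list the called genes or the 2 of highest mean CPM. Any other gene was named after its values were seen.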

Additional observations from a re-analysis of the deposited data

How the results depend on the processing

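Across 40 named members and 784 recomputed values, 628 kept their direction and their side of the threshold, 83 kept their direction and passed it, and 73 changed direction. The changes of direction were those of mitochondrially encoded genes, Ndufs4 and Ndufa1. With 2 libraries per group, precision is limited by the spread between pools rather than by read depth.

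No gene was called in the limma fit on CPM. The number called was 30 with TMM-scaled CPM, 49 with DESeq2-scaled CPM, 11 once the 20 most abundant genes were dropped, 536 without the mitochondrially encoded genes, 244 with a pseudocount of 4, 1086 with means of 10 CPM or more, 49 in edgeR and 2135 in DESeq2. Of the nuclear members, 32 passed without the mitochondrially encoded genes, 14 with a pseudocount of 4 and 56 with means of 10 CPM or more. The last fit holds fewer genes, and the cause of the other shifts was not tested.

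With a replicate block for the library number, limma called 1341 genes, among them 57 nuclear and 2 mitochondrially encoded members, and with TMM scaling as well it called 397 genes and 15 nuclear members. The labels do not say that the number marks the same mice, and the deviations of same-numbered libraries correlated at 0.148 over 13019 genes, so the block is given here only.

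Mitochondrially encoded members higher in both IQ3pos libraries numbered 0 of 12 under TMM and DESeq2 scaling and 0 of 9 without the 20 most abundant genes. Medians above all genes are lower where only abundant genes are compared, since the all-gene median is then higher. With means of 10 CPM or more the nuclear median was 0.60, and 0.54, 0.57, 0.78 and 0.75 for complexes I, III, IV and V. With no filter, where the all-gene median takes in silent genes, the nuclear median was 1.55 (1.5, 1.53, 1.55 and 1.71 by complex). The mitochondrially encoded one was then 0.76, with 0.65, 0.68 and 1.25 for complexes I, IV and V. With a pseudocount of 4, nuclear complexes I and V were at 0.99 and 1.23. Nuclear complex V was at 0.92 under TMM scaling (with or without the block) and DESeq2 scaling, 0.91 after dropping the 20 most abundant genes, and 0.87 in both count tests. Nuclear complex I was at 0.66 in both count tests, and mitochondrially encoded complex V at 0.19 in DESeq2. The mitochondrially encoded share in IQ3pos was 75.6% with only the members that lack a near-identical copy.

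Single genes turned to below 0 as follows. Under TMM scaling, with or without the block, mt-Co1 was at -0.07, mt-Co3 at -0.08, mt-Nd4 at -0.25, mt-Nd5 at -0.10 and Ndufs4 at -0.08, and DESeq2 scaling gave the same values except -0.11 for mt-Nd5. Without the 20 most abundant genes, mt-Nd2 was at -0.08, mt-Co2 at -0.12, mt-Co3 at -0.29, mt-Nd4 at -0.47, mt-Nd5 at -0.33, mt-Nd6 at -0.21 and Ndufs4 at -0.30. In edgeR and DESeq2 respectively, mt-Nd1 was at -0.20 and -0.20, mt-Nd2 at -0.12 and -0.13, mt-Co1 at -0.36 and -0.37, and mt-Co2 at -0.18 and -0.25. There mt-Co3 was at -0.17 and -0.22, mt-Nd4 at -0.48 and -0.50, mt-Nd5 at -0.31 and -0.32, mt-Nd6 at -0.11 and -0.12, and Ndufs4 at -0.09 and -0.08.

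Leaving out each library in turn, on CPM and TMM-scaled CPM, gave these ranges. Mitochondrially encoded members higher in IQ3pos ranged from 0 to 12. The nuclear median above all genes ranged from 0.59 to 1.14, by complex from 0.48 to 1.01 (I), 0.60 to 1.02 (III), 0.72 to 1.29 (IV) and 0.77 to 1.27 (V). The mitochondrially encoded median ranged from -0.96 to 1.12, by complex from -0.84 to 0.91 (I), -0.54 to 1.37 (III), -1.46 to 1.52 (IV) and -0.91 to 2.01 (V). By gene, the range was -0.79 to 1.47 for mt-Nd1, -0.74 to 1.63 for mt-Nd2, -0.16 to 0.71 for mt-Nd3, -1.20 to 1.30 for mt-Nd4, -1.06 to 1.46 for mt-Nd5 and -0.57 to 1.20 for mt-Nd6. It was -0.47 to 1.84 for mt-Cytb, -1.07 to 1.54 for mt-Co1, -1.39 to 2.10 for mt-Co2, -1.57 to 2.02 for mt-Co3, -0.99 to 2.65 for mt-Atp6 and -0.69 to 2.31 for mt-Atp8. Ndufa1 ranged from -1.55 to 0.08 and Ndufs4 from -0.48 to 1.03. A group left with 1 library is assumed to vary like the other.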

Other observations

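The mitochondrial genome also gives ribosomal and transfer RNAs, which build its own translation system. The small ribosomal RNA, mt-Rnr1, read 548 CPM in IQ3pos_1909A, 209 CPM in IQ3pos_1910A, 1001 CPM in IQ3neg_1909B and 80.5 CPM in IQ3neg_1910B. The large one, mt-Rnr2, stood at 2214 and 615 CPM in IQ3pos and 4366 and 346 CPM in IQ3neg. IQ3neg_1909B was the highest library for both, and IQ3neg_1910B the lowest, so the groups overlap. Together they were 0.0240 and 0.0102 times the mitochondrially encoded subunit reads in IQ3pos, and 0.0700 and 0.0150 times in IQ3neg. The 22 mitochondrial transfer RNA rows summed to 25.9 and 18.3 CPM in IQ3pos and 25.4 and 3.49 CPM in IQ3neg, and nearly all of it was mt-Tp, at 24.6, 17.6, 24.6 and 3.11 CPM. The other 21 rows together reached 1.28 CPM at most.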
